A study of Sus scrofa with 6 samples.

Results

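The BCL2 family genes described here were found by gene name in a table of normalized messenger RNA levels of porcine 2-cell embryos. Of 10 family members searched, 8 had a row among 17678 genes: the anti-apoptotic BCL2L1 and MCL1, the effectors BAX, BAK1 and BOK, and the BH3-only genes BCL2L11, BID and BAD. BCL2 and BCL2L10 were not found by name and were not analysed here, so the ratio of BAX to BCL2 could not be formed. The study asked how the corepressor SIN3A, a scaffold of histone deacetylase complexes, acts in early porcine embryos. Mature oocytes from slaughterhouse ovaries of Landrace, Yorkshire and Duroc crossbred pigs were injected with siRNA and then activated without sperm. The NC group received a non-specific siRNA and the KD group received siRNAs against SIN3A. Each group had 3 libraries, and every library was made from polyadenylated RNA of 20 pooled embryos collected at 32 h after parthenogenetic activation. Embryos without a paternal genome and pools of whole embryos limit what the levels stand for, since fewer cells with a transcript and less RNA per cell cannot be told apart. Spike-in mRNA was added before extraction but was not used here, so levels are relative to the other transcripts of a library.

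BCL2 family proteins decide whether the outer mitochondrial membrane stays intact. Anti-apoptotic members such as BCL-XL, the product of BCL2L1, and MCL1 bind and hold back the effectors BAX and BAK1, which otherwise form pores and let cytochrome c escape. BH3-only proteins such as BIM, the product of BCL2L11, BID and BAD sense stress and engage the guardians or the effectors, and oocytes and cleavage embryos are known to carry transcripts of the family from the maternal store.

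The values are read estimates that were normalized between libraries. Their low values were spaced in steps, from which depths of about 10900000, 7800000 and 13000000 reads were estimated for the NC libraries and about 11800000, 15800000 and 10200000 reads for the KD libraries. Library values are given below in the order of replicates 1 to 3. SIN3A, the target of the siRNAs, had values of 37361, 33964 and 32404 in the NC libraries and of 3271, 1079 and 4173 in the KD libraries. Every KD library was below every NC library, so the labels and the target gene matched. On the log2(value + 1) scale, the KD to NC difference of SIN3A was -3.81 (standard error, SE, of 0.31 and limma adjusted p = 8.45e-06), and the exact two-sided permutation test gave p = 0.1, the smallest that 3 libraries against 3 allow. Without the variance trend of limma the adjusted p of SIN3A was 0.423 at the same fold change. The replicates are described as independent, without detail on the collections of ovaries behind them, and the p-values measure the spread between these libraries.

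The oocyte and early embryo markers matched the labelled tissue. All 8 of the 10 listed markers that had a row were at a mean of at least 10, as were 11986 of 17678 genes. Of these markers, KPNA7, an oocyte importin, had the highest mean at 39815. Their summed level was 92302, 93927 and 84530 in the NC libraries and 102031, 95789 and 81828 in the KD libraries. Of 11 markers of cumulus and granulosa cells, the somatic cells that surround the oocyte, 9 had a row and 3 reached a mean of 10. Their summed level was 98.7, 89.9 and 105 in NC and 115, 73.6 and 96.0 in the KD libraries, with FST as the most abundant at a mean of 56.5. The KD mean was the higher for 3 of the 9 and the lower for 6. PTX3, a cumulus matrix gene, was listed at 0 in all 3 KD libraries and at 0.762 to 2.21 in NC, while CYP19A1, the aromatase of granulosa cells, was at 3.55, 0 and 1.94 in NC and at 9.27, 3.26 and 10.7 in KD. The 3 blood and immune markers summed to 95.1, 1.47 and 13.0 in NC and to 11.11, 0.915 and 14.2 in KD. HBB, a globin of red blood cells, was the most abundant of them and was at 74.9 in NC replicate 1 and at most 1.96 in the other libraries. The part of somatic or blood RNA in the results below was not tested, beyond the fits that leave out NC replicate 1.

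None of the 5 family members at a mean of at least 10 was called between KD and NC, against 0.159% of the 11986 genes tested (limma with Benjamini-Hochberg adjustment, adjusted p below 0.05). At an unadjusted p below 0.05, 0 of these 5 members passed, against 4.61% of all tested genes. The median log2 fold change of the 5 members was 0.039, and that of all tested genes was 0.0026. The remaining BID, BAD and BOK had means under 10 and were not tested in this fit. Without NC replicate 1, the library with HBB, 0 members were called among 16 genes in all.

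The anti-apoptotic BCL2L1 was the most abundant per length of mRNA of the 8 members with a named row. BCL2L1 (ENSSSCG00000035357) maps to chromosome 17 of the Sscrofa11.1 build, bases 35366139 to 35415798, minus strand. Its normalized value was 23228, 23346 and 23915 in the NC libraries and 24332, 22566 and 23812 in the KD libraries. The groups overlapped, and both the lowest and the highest of the 6 values were in KD libraries. NC libraries averaged 23496 ± 368 and KD libraries 23570 ± 907 (SD, n = 3 each). The log2 fold change was 0.0039 (SE 0.078, 95% confidence interval, CI, -0.16 to 0.17, limma adjusted p = 0.999), which bounds the ratio of KD to NC between 0.894 and 1.12. The exact two-sided permutation test gave p = 1. Its sign was not fixed, with -0.0040 after quantile normalization, -0.0043 without NC replicate 1, -0.00066 without NC replicate 2, -0.019 without KD replicate 1 and -0.0038 without KD replicate 3, and it was 0.035 without KD replicate 2. By mean value BCL2L1 ranked 27 of the 17678 genes and held 0.204%, 0.205% and 0.216% of the summed values of the NC libraries and 0.212%, 0.199% and 0.213% of the KD libraries.

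MCL1 encodes a short-lived guardian that is removed by the proteasome. MCL1 (ENSSSCG00000039314) maps to chromosome 4, bases 98562092 to 98567014, plus strand. Its value was 107, 112 and 141 in the NC libraries and 147, 103 and 121 in the KD libraries. The groups overlapped, with the lowest and the highest value again in KD libraries. The log2 fold change was 0.039 (SE 0.20, 95% CI -0.37 to 0.45, limma adjusted p = 0.997), which bounds the ratio between 0.771 and 1.37. The exact permutation test gave p = 0.8. Its sign also depended on the libraries, at -0.035 without NC replicate 1, -0.0058 without NC replicate 2 and -0.091 without KD replicate 1, and at 0.16 without either NC replicate 3 or KD replicate 2.

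**Figure D1:**
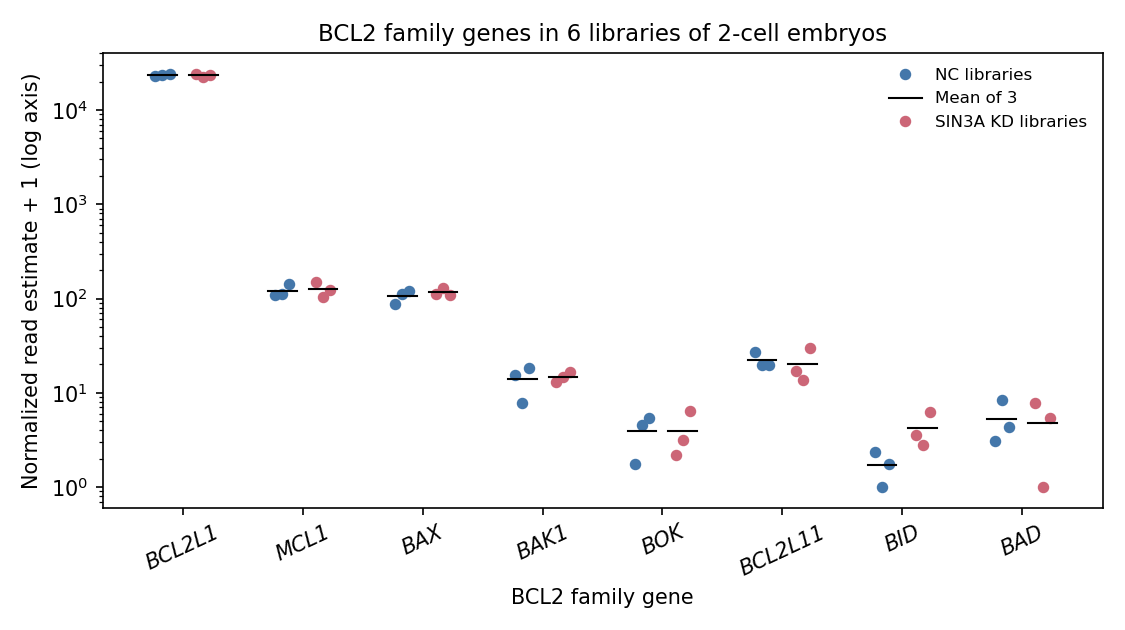
Normalized read estimate plus 1 on a log axis for 8 BCL2 family genes, with 1 point for each of the 3 NC and 3 SIN3A KD libraries and a line at each group's mean. BCL2L1 sits between 22566 and 24332 in the 6 libraries, and apart from BID, where the 3 KD points lie above the 3 NC points, the groups overlap in each gene.

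Among the effectors, BAX encodes the cytosolic pore former. RefSeq places BAX on chromosome 6, bases 54222341 to 54228150, plus strand. The row named BAX carries the identifier ENSSSCG00000003144, which the reference table of gene names gives to DHDH, a gene that ends 5090 bases before BAX. The table has 1 other row named DHDH, at 2.18 or less. Which transcripts were counted in the BAX row could not be checked, so all values of BAX here rest on the deposited name. Its value was 86.6, 110.4 and 118 in the NC libraries and 112, 127 and 109 in the KD libraries. The groups overlapped, although the lowest value was in an NC library and the highest in a KD library. NC libraries averaged 105 ± 16.3 and KD libraries 116 ± 9.54 (SD, n = 3 each). The log2 fold change was 0.15 (SE 0.19, 95% CI -0.25 to 0.56, limma adjusted p = 0.997), which bounds the ratio between 0.838 and 1.48. The exact permutation test gave p = 0.5. The difference was positive in each fit that left out a library, from 0.023 without NC replicate 1 to 0.24 without NC replicate 3.

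BAK1 encodes the effector that resides in the outer mitochondrial membrane. BAK1 (ENSSSCG00000001516) maps to chromosome 7, bases 29808849 to 29815345, minus strand. Its value was 14.5, 6.74 and 17.5 in the NC libraries and 12.2, 13.8 and 15.5 in the KD libraries. All KD values lay between the NC extremes, and NC replicate 2, the library of lowest estimated depth, was the lowest. For BAK1 the log2 fold change was 0.18 (SE 0.49, 95% CI -0.87 to 1.22, limma adjusted p = 0.997), and the exact permutation test gave p = 0.9. Without NC replicate 2 it was -0.20, and without NC replicate 3 it was 0.43. The ratio was bounded only between 0.549 and 2.33.

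BOK, a relative of the effectors, maps to chromosome 15, bases 140171134 to 140184126, plus strand. Its value was 0.765, 3.58 and 4.41 in the NC libraries and 1.19, 2.18 and 5.37 in the KD libraries. The groups overlapped, and each value stood for at most 5.16 estimated reads. With no filter on low values, BOK had a log2 fold change of 0.0073 (95% CI -1.45 to 1.46, unadjusted p = 0.992 by limma), and the exact permutation test gave p = 1.

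Of the BH3-only genes, BCL2L11 reached the mean of 10 needed for the test. BCL2L11, which encodes BIM, maps in RefSeq to chromosome 3, bases 45156791 to 45202996, minus strand. Its value was 26.0, 18.6 and 18.7 in the NC libraries and 15.9, 12.6 and 29.1 in the KD libraries. The highest and the lowest value were both in KD libraries, so the groups overlapped. For BCL2L11 the log2 fold change was -0.20 (SE 0.42, 95% CI -1.08 to 0.69, limma adjusted p = 0.997), and the exact permutation test gave p = 0.6. It was 0.048 without KD replicate 2 and -0.53 without KD replicate 3. The ratio was bounded between 0.473 and 1.61. Its deposited identifier, ENSSSCG00000022322, is absent from the reference table of gene names, so BCL2L11 also rests on the deposited name.

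BID carries the death receptor signal to the mitochondrion once caspase-8 has cleaved it. BID (ENSSSCG00000000769) maps to chromosome 5, bases 69849007 to 69874647, minus strand. Its value was 1.35, 0 and 0.770 in the NC libraries and 2.52, 1.79 and 5.26 in the KD libraries. All 3 KD values were above all 3 NC values, and BID was the only member among the 8 whose groups did not overlap. Of all 17678 genes, 9.07% had groups that did not overlap, and of the tested genes 9.79%. The values stood for 0 to 4.80 estimated reads in a library, and the listed 0 in NC replicate 2 allows a value of up to 4.39, which covers 2 of the 3 KD values (the limit is 3 reads and covers counting error only). The exact permutation test gave p = 0.1, the smallest possible. When genes of any level were tested, BID had an unadjusted p of 0.0757 and an adjusted p of 0.994 from limma, at a log2 fold change of 1.29 (95% CI -0.15 to 2.73). A difference of BID between NC and KD was therefore not resolved at this depth.

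BAD is the BH3-only protein controlled by survival kinases through phosphorylation. BAD (ENSSSCG00000013033) maps to chromosome 2, bases 7831192 to 7842864, plus strand. Its value was 2.10, 7.38 and 3.38 in the NC libraries and 6.85, 0 and 4.36 in the KD libraries. The groups overlapped, with the listed 0 in KD replicate 2 as the lowest value. In the fit of genes of any level, BAD was at -0.48 (95% CI -2.05 to 1.10, unadjusted p = 0.536 and adjusted p = 0.994, both by limma), and the exact permutation test gave p = 0.8.

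Levels were compared between members per kb of the longest RefSeq mRNA. BCL2L1 was at 7046 ± 186 per kb (SD over 6 libraries, as in the following values), and it ranked 28 of 13356 genes with a RefSeq length. BAX followed at 133 ± 16.1 per kb and MCL1 at 30.9 ± 4.61 per kb. The ranges over the libraries did not overlap between BCL2L1 and BAX, between BAX and MCL1, or between MCL1 and BAK1. BAK1 was at 5.68 ± 1.57, BCL2L11 at 3.83 ± 1.19 and BAD at 3.76 ± 2.64 per kb. The levels of these last members overlapped with each other, and BID at 1.37 ± 1.29 per kb overlapped with them as well. BOK at 0.553 ± 0.348 per kb overlapped with BAD and BID. Its highest value of 1.02 per kb was below the lowest of BAK1 (2.86) and of BCL2L11 (2.39). The order of BAX before MCL1 differs from the order of the values without length, since the longest BAX mRNA has 833 bases and the MCL1 mRNA 3944. The lengths of BAX and BCL2L11 were taken by name, so their levels per kb, and that order, hold only if the deposited names are right.

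**Figure D2:**
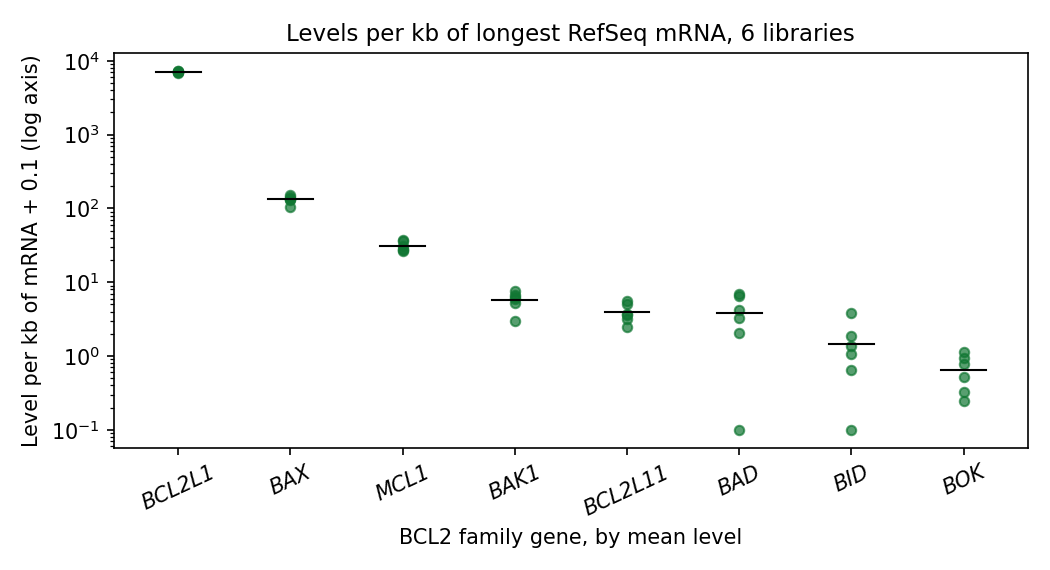
Level per kb of the longest RefSeq mRNA plus 0.1, on a log axis, for 8 BCL2 family genes, with 1 point for each of the 6 libraries of both groups and a line at their mean. BCL2L1 lies near 7046, the row named BAX near 133 and MCL1 near 30.9 per kb, and the other members are below 8.

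BCL2L1 made up most of the summed level per kb of the 8 members in every library. BCL2 and BCL2L10 are missing from this sum and could be among the 3575 rows without a name. Its share of the sum over the 8 members was 98.0%, 97.6% and 97.4% in the NC libraries and 97.5%, 97.3% and 97.5% in the KD libraries. The groups overlapped within less than 1 percentage point. The ratio of BCL2L1 to BAX, which was chosen after seeing the data because BCL2 had no value, was 66.9, 52.8 and 50.6 per kb in NC and 54.1, 44.3 and 54.3 per kb in KD. The ratio was highest in NC replicate 1, where BAX was lowest, and the groups overlapped. It depends on the name of the BAX row as well.

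A feature that the gene names do not use is the BH3 core, the short helix by which the members bind each other. Coding sequences of RefSeq were searched for a leucine codon, 3 codons of any kind, a glycine or serine codon and an aspartate codon. Of the 8 members, 7 held the pattern in any of their RefSeq mRNAs, and no match was found for BOK. A missing match in the annotated coding sequence does not show that the protein lacks a BH3 core. Of 20648 RefSeq genes, 26.6% held the pattern in the longest mRNA, the only one searched for this share. The letters alone therefore do not single out the family. The stretches of 30 bases are printed to show what the guardians, effectors and BH3-only genes share, with the leucine codon and the glycine or serine and aspartate codons in capitals. They were read from Sscrofa11.1 in the direction of transcription and lie in coding exons.
BCL2L1: caagcgCTGagggaggcgGGCGATgagttt
MCL1: gagaccCTGcgacgggtcGGGGACggggtg
BAX: gagtgtCTCaagcgcattGGAGATgaactg
BAK1: cgccagCTCgccatcattGGGGATgacatc
BCL2L11: caggagTTAcggcgtattGGAGACgaattt
BID: aggcatCTCgcccgaataGGGGACaggatg
BAD: cgcgagCTCcggaggatgAGTGACgagttc
BAD was the member with serine in place of glycine. The stretch of BCL2L1 lies at chr17:35413750-35413779 in exon 2, that of MCL1 at chr4:98562867-98562896 in exon 1, and that of BAX at chr6:54223258-54223287 in exon 3. The stretch of BAK1 lies at chr7:29811742-29811771 in exon 4, and a second match of BAK1 is not shown. The stretch of BCL2L11 lies at chr3:45174083-45174112 in exon 3, that of BID at chr5:69851348-69851377 in exon 4, and that of BAD at chr2:7841825-7841854 in exon 4. The BH3 stretch was present in all 12 RefSeq mRNAs of BCL2L1 and in 6 of the 9 of BCL2L11, and a value per gene does not tell these mRNAs apart.

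Other genes of the pathway were taken from 10 lists with 76 genes, of which 66 had a row and 56 were tested. By limma 0 of the 56 were called, 2 had an unadjusted p below 0.05 (3.57%, against 4.61% of all tested genes), and 4 had groups that did not overlap (7.14%, against 9.79%). The median log2 fold change over the 56 genes was -0.029, with 23 above and 33 below 0. The median of all tested genes was 0.0026.

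Within the family's wider circle, 4 other multidomain genes had a median of -0.16 and 7 other BH3-only and BNIP genes one of -0.17. BCL2L14 had the highest mean of these 4 other multidomain genes, at 994, 958 and 944 in NC and 967, 949 and 1010.3 in the KD libraries. BCL2L12 had a log2 fold change of -0.33 (95% CI -1.72 to 1.05), which was 0.12 without KD replicate 1, 0.084 without NC replicate 2 and -1.05 without KD replicate 3. PMAIP1, which encodes the MCL1 antagonist NOXA, was at 23.99, 17.6 and 27.3 in NC and at 8.76, 20.1 and 17.5 in KD libraries. Its groups overlapped, and its log2 fold change was -0.59 (95% CI -1.50 to 0.32, limma adjusted p = 0.997). This was -0.25 without KD replicate 1 and -0.81 without KD replicate 2. The mitophagy receptor BNIP3L had the highest mean of the BH3-only and BNIP list, with a log2 fold change of -0.17 (95% CI -0.40 to 0.069), and of -0.25 to -0.11 on leaving out a library.

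At and behind the mitochondrial membrane, the 4 tested outer membrane partners had a median of -0.040 and the 5 released factors and apoptosome genes one of -0.044. VDAC1, a channel of the outer membrane, had a log2 fold change of -0.045, and it ran from -0.083 without NC replicate 2 to 0.017 without KD replicate 3. BCAP31, a membrane protein of the endoplasmic reticulum, had one of -0.12, between -0.24 without NC replicate 3 and 0.0017 without KD replicate 3. OPA1, which shapes the cristae, was at 1480, 1444 and 1447 in NC and at 1364, 1436 and 1442 in KD libraries. Its groups did not overlap, while its log2 fold change was -0.044 with an unadjusted p of 0.636 from limma, -0.018 without KD replicate 1 and -0.058 without KD replicate 3. DIABLO, an antagonist of the inhibitors of apoptosis, had a log2 fold change of -0.46 (95% CI -1.28 to 0.37), which ran from -0.65 to -0.29 on leaving out a library.

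Among the executioners and their brakes, 7 caspase genes had a median of -0.098 and 4 inhibitors of apoptosis one of -0.011. CASP6, an effector caspase, was at 398, 243 and 267 in NC and at 249, 186 and 249 in KD libraries. The groups overlapped, with NC replicate 1 as the highest. The log2 fold change was -0.39 (SE 0.18, 95% CI -0.78 to 0.00053, unadjusted p = 0.0503 and adjusted p = 0.997, both by limma). It was -0.17 (SE 0.17) without NC replicate 1 and -0.53 (SE 0.20) without NC replicate 2. At the same log2 fold change, the SE was 0.15 with the replicate block and 0.175 with no filter on low values. The unadjusted p of CASP6 by limma was below 0.05 in both of these fits. Without the variance trend the SE was 0.227, and the unadjusted p by limma was above 0.05. CASP8AP2, a caspase-8 binding protein, had the highest mean of its list and a log2 fold change of -0.035, with -0.17 without KD replicate 3 and 0.16 without KD replicate 2. BIRC3, a ubiquitin ligase, was at 1929, 1751 and 1757 in NC and at 1629.8, 1404 and 1693 in KD libraries. All KD values were below all NC values, with a log2 fold change of -0.21 (95% CI -0.41 to 0.0040, unadjusted p = 0.0540 and adjusted p = 0.997, both by limma), and of -0.12 (unadjusted p = 0.263 by limma) without KD replicate 2 and -0.26 (0.0268) without KD replicate 3. The unadjusted p of BIRC3 by limma was also 0.0496 with no filter on low values, 0.0477 after quantile normalization, 0.0424 with the replicate block, 0.132 without the variance trend and 0.134 without NC replicate 1. BIRC6 had the highest mean of the inhibitors and a log2 fold change of 0.032, with -0.11 without NC replicate 3 and 0.15 without NC replicate 1.

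In the death receptor arm upstream of BID, 5 tested genes had a median of -0.022. TRADD, an adaptor of the TNF receptor, was at 10.4, 14.6 and 19.7 in NC and at 28.2, 12.9 and 40.6 in KD libraries. The groups overlapped through KD replicate 2, and the log2 fold change of 0.73 had a 95% CI of -0.24 to 1.70. It was 0.38 (SE 0.50) without KD replicate 3 and 1.17 (SE 0.46) without KD replicate 2. RIPK1, a kinase of the same receptor complex, had a log2 fold change of -0.039, which was -0.12 without NC replicate 1 and 0.027 without NC replicate 2.

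Of the 7 tested genes that act on MCL1 turnover, 2 had an unadjusted p below 0.05 by limma (28.6%, against 4.61% of all tested genes). Over the 56 tested list genes the share was 3.57%, and a difference of this list from other genes was not tested. The median log2 fold change of the 7 genes was 0.055. GSK3B, a kinase that marks MCL1 for degradation, was at 366, 297 and 300.4 in NC and at 388, 403 and 427 in KD libraries. All KD values were above all NC values, with a log2 fold change of 0.34 (95% CI 0.066 to 0.62, unadjusted p = 0.0184 and adjusted p = 0.971, both by limma). Without NC replicate 1 it was 0.44 (unadjusted p = 0.00431 by limma). The unadjusted p of GSK3B from limma was 0.0748 without NC replicate 2, 0.0653 without NC replicate 3 and 0.0528 without KD replicate 3. USP13, a deubiquitinase that stabilizes MCL1, was at 1163, 965 and 711 in NC and at 616, 792 and 790.3 in KD libraries. The groups overlapped, with a log2 fold change of -0.35 (95% CI -0.67 to -0.026, unadjusted p = 0.0359 and adjusted p = 0.997, both by limma). It varied with the libraries kept, at -0.19 (unadjusted p = 0.224 by limma) without NC replicate 1, -0.32 (0.0850) without NC replicate 2, -0.23 (0.182) without KD replicate 1 and -0.54 (0.00154) without NC replicate 3. Without the variance trend the unadjusted p of USP13 by limma was 0.149. USP9X, another deubiquitinase of MCL1 and the gene with the highest mean in the list, had a log2 fold change of -0.00064, from -0.064 without NC replicate 3 to 0.092 without NC replicate 1.

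The 6 tested genes of BIM and BAD regulation had a median of 0.021. DYNLL2, a dynein light chain that binds BMF, had the highest mean of all list genes, and its log2 fold change was -0.040 (95% CI -0.21 to 0.13), and -0.064 without NC replicate 2 or -0.00060 without NC replicate 1. RPS6KA1, a kinase that phosphorylates BAD, had one of -0.23 (95% CI -0.97 to 0.50), which was -0.017 without KD replicate 3 and -0.40 without NC replicate 1. The 7 BAG and BCL2-interacting cofactors had a median of 0.037. BAG6 was the highest of them with a log2 fold change of 0.16, from 0.083 to 0.32 on leaving out a library, and BAG5 had one of 0.44 (95% CI -0.59 to 1.46), from 0.16 to 0.71. BCLAF1, named after its values were seen, was the fourth list gene without overlap, at 130.0, 136 and 145 in NC and at 148, 173 and 176 in KD libraries. Its log2 fold change was 0.27 (95% CI -0.080 to 0.62, unadjusted p = 0.122 from limma).

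**Figure D3:**
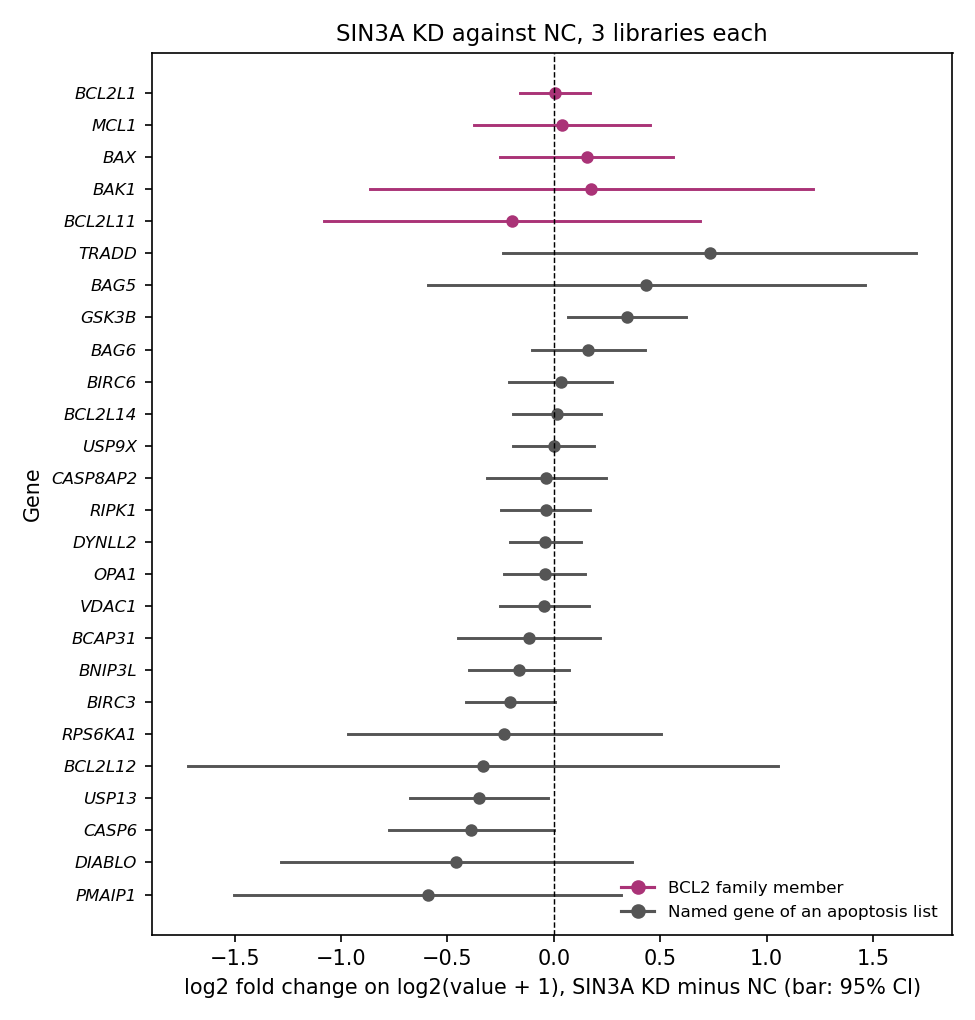
Log2 fold change of SIN3A KD over NC on the log2(value + 1) scale with its 95% CI, for the 5 tested BCL2 family genes and for the named genes of the apoptosis lists, from 3 libraries in each group. The interval of BCL2L1 runs from -0.16 to 0.17, and the intervals of all 5 members include 0.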

How the data were processed

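Reads were assigned to transcripts of Sscrofa11.1 with Salmon 0.14.1 and groups were compared with DESeq2, per the submitters' processing notes and the methods of the study. The authors deposited 1 table of normalized signal values per gene, which are read estimates and not counts. Of the values above 0 and up to 20.5 steps of a single read, 66.9% to 73.7% in a library lay within 0.1 of a step from a whole number of steps, and the values were not turned into counts. The step gave the estimated depths, and the lower a value is, the less precise is its fold change. Members were rows whose gene name equals a listed name. List genes were also matched through the identifiers of the reference table of gene names where a row had no name, which added 5. The members and lists were chosen with earlier results of these data known. Genes with a mean of at least 10 entered limma 3.58.1 (R 4.3.3), run on log2(value + 1) by lmFit and eBayes with a variance trend and Benjamini-Hochberg adjustment over all of them. This scale understates fold changes of low values. For single genes, exact two-sided permutation tests were run in scipy 1.17.1. Named are all members, SIN3A and, of each list, the gene with the highest mean, each gene called or with an unadjusted p below 0.05, and the tested gene with the largest absolute log2 fold change. The fit was tested on simulated data with the same spread setting for every gene, so that test does not cover the spread seen here. Python 3.11.15, numpy 2.4.6, pandas 2.3.3, pysam 0.24.0, biopython 1.88 and matplotlib 3.10.9 were used for tables, sequences and figures. The results were repeated with quantile normalization, with TMM-like rescaling, with pseudocounts of 0.1 or 10, with no filter or one at 100, without the variance trend, with the replicate number as a block, without each library in turn, and with median mRNA lengths.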

Additional observations from a re-analysis of the deposited data

How the results depend on the processing

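The count of called family members was 0 and that of called list genes was 0 in every alternative run, with 0 members at an unadjusted p below 0.05 by limma throughout and 1 to 5 list genes. The count of all tested genes called was 19, and 11 to 19 when each library was left out. It was 0 without the variance trend, with 622 genes at an unadjusted p below 0.05, and SIN3A then had an adjusted p of 0.423 at a log2 fold change of -3.81. The cause was not tested. SIN3A had adjusted p values from 3.19e-11 to 0.423 over its alternatives.

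Leaving out each library gave log2 fold changes from -0.019 to 0.035 for BCL2L1, from -0.53 to 0.048 for BCL2L11, from -0.091 to 0.16 for MCL1 and from -0.20 to 0.43 for BAK1. For BCL2L1 it was -0.0040 after quantile normalization. Of 68 comparisons of the 5 members with an alternative, 58 kept direction and side of the threshold and 10 reversed. Of 288 for 21 list genes, 13 reversed, all on leaving out a library. The ranges were -0.24 to 0.0017 for BCAP31, -1.05 to 0.12 for BCL2L12, -0.010 to 0.036 for BCL2L14, -0.11 to 0.15 for BIRC6, -0.17 to 0.16 for CASP8AP2, -0.12 to 0.027 for RIPK1, -0.064 to 0.092 for USP9X and -0.083 to 0.017 for VDAC1. The cause was not tested. With the median mRNA length, BCL2L1 was at 9522 per kb in place of 7046, since its RefSeq mRNAs differ in length. The ratio of BAX to BCL2 could not be run.

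A block for the replicate number gave 26 called genes and 0 called members, and no other call named here changed. The replicate numbers were not taken as a pairing, since neither the labels nor the methods state one. The deviations of same-numbered libraries correlated at 0.109, 0.111 and 0.0872. Those of differently numbered NC and KD libraries correlated at -0.083 to -0.021. Each library correlated best with its own number, which is a hint from the data and not from the design.

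The values of BID, BAD and BOK rest on few reads, and the intervals of BAK1 and BCL2L11 include changes of 1.5-fold in both directions. Total mRNA per embryo was not measured here.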
